A study of Mus musculus with 18 samples.

Results

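The cluster histone genes of the mouse lens were examined by class, between wild types of 2 ages and beside the effects of 2 crystallin mutations. Members were all genes of the count table whose symbol starts with Hist1h, Hist2h, Hist3h or Hist4h and that had at least 1 count in the 18 libraries. The table listed 70 such symbols, of which 64 had a count, out of 26547 genes with a count and 40800 genes in all. By symbol, 6 members were H1 genes, 18 were H2A, 17 were H2B, 10 were H3 and 13 were H4. In the first cluster lay 54 members, on chromosome 13, with 6 in the second on chromosome 3, 3 in the third on chromosome 11 and 1 in the fourth on chromosome 6.

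RNA from pooled lenses of C57BL/6J mice was sequenced in 3 libraries for each of 6 groups. Lenses of the *Cryaa*-R49C knock-in line were taken on day 2 after birth from WT, heterozygous (*Cryaa*-R49C-het) and homozygous (*Cryaa*-R49C-homo) mice. Lenses of the *Cryab*-R120G knock-in line were taken on day 14 from WT mice and from mice with 1 (*Cryab*-R120G-het) or 2 (*Cryab*-R120G-homo) mutant copies. The mutant mice carry a point mutation of an α-crystallin gene at its own locus in every cell, which read counts per gene cannot check. The genotype field of some *Cryab* libraries names the other line, so groups follow the sample titles. Each library is a pool of several lenses, and the p-values measure the spread between these pools. The WT groups differ in both line and age, and these cannot be told apart here.

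Histones H2A, H2B, H3 and H4 form the core of the nucleosome, and H1 binds the linker DNA between nucleosomes. Most genes of the histone clusters are transcribed in S phase, when newly made DNA has to be packed. Their mRNAs usually end just after a conserved stem-loop in place of a poly-A tail, and the stem-loop is bound by SLBP. Some cluster genes also give polyadenylated mRNAs that run on past the stem-loop, a form known from cells that have left the cell cycle. In the lens, an anterior epithelium holds the dividing cells, and fibre cells leave the cycle and later lose their nuclei. These libraries were made with a poly-A kit, which selects mRNAs that carry a tail.

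The 3′ stem-loop was searched in the GENCODE vM21 transcripts (GRCm38) as a 16-base match with a 6-base stem and a 4-base loop that starts with TTT. It was found in 39 of the 62 members with an annotated transcript, and in 10 of 21843 other protein-coding genes (0.0458%). The shortest transcript without a match had 312 bases. A stem-loop past the annotated end would be missed, so a member without a match may still have one. All 28 matching H1, H2A, H2B and H3 genes shared the left stem ggctct, while 9 of the 11 matching H4 genes had ggccct and 2 had ggtcct. The following stem-loops are those of the members on which the results turn, in capitals, with 5 bases on each side.
Hist1h1c (chr13:23739507-23739532, plus strand): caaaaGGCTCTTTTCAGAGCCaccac
Hist1h1e (chr13:23621777-23621802, minus strand): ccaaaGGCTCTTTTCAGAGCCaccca
Hist3h2a (chr11:58955167-58955192, plus strand): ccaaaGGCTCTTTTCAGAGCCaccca
Hist1h2ae (chr13:23570663-23570688, minus strand): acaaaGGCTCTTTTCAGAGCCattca
Hist2h2ac (chr3:96220413-96220438, minus strand): aaaaaGGCTCTTTTTAGAGCCaccaa
Hist3h2ba (chr11:58949344-58949369, plus strand): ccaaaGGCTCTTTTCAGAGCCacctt
Hist1h4d (chr13:23581945-23581970, plus strand): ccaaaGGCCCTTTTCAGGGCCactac
Hist1h4h (chr13:23531453-23531478, plus strand): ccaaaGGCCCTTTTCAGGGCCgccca
Hist2h4 (chr3:96262934-96262959, minus strand): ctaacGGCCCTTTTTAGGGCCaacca
The transcripts of *Hist1h2bc*, the member with most reads, held no match to these letters.

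The members differed in how far the annotation continues past the stem-loop. In 20 of the 39 members the transcript went on for at least 100 bases, and these had a median of 404.5 counts over the 18 libraries, with 15 of them above 100 counts. In the 19 members that ended within 100 bases of it, the median was 28 counts, and 5 had at least 100 counts. The longer group included *Hist1h1c* with 840 bases after the stem-loop, *Hist3h2a* with 1643, *Hist2h4* with 1257, *Hist1h4d* with 770 and *Hist1h1e* with 1153. The shorter group included *Hist1h2ab* with 11 bases, *Hist1h4h* with 46 and *Hist2h2ac* with 57. The longer group held 52.2% of all counts of the members, the shorter group 3.33%, and the members without a match 44.3%, a group that includes *Hist1h2bc*. The counts were made on other gene models and are not scaled by length. *Hist1h4d* had a counted length of 393.1 bases against 1138 in this transcript, and *Hist1h1e* 748.1 against 1930. For these, most bases after the stem-loop lay outside the counted gene. Whether a member was read because its mRNA carries a poly-A tail was not tested, since the counts do not show where a read ends.

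**Figure D1:**
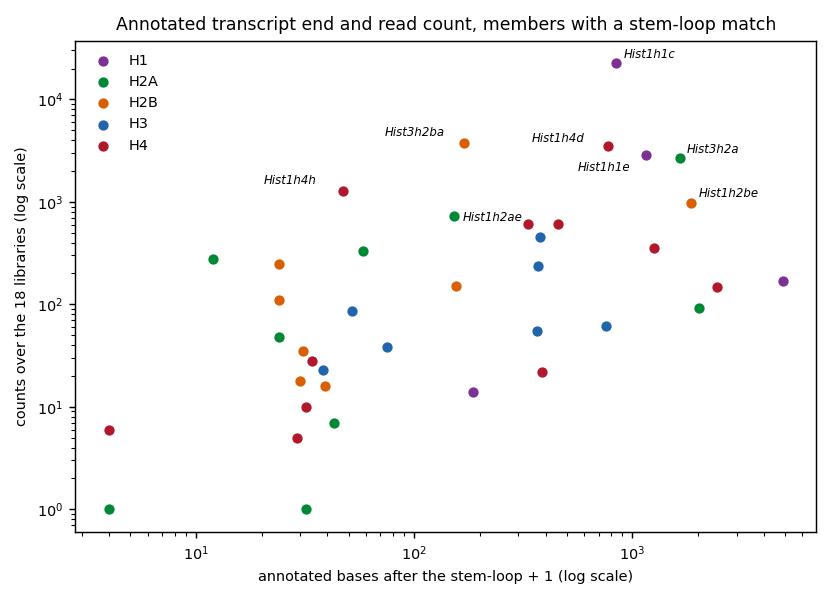
Each point is 1 of the 39 members with a stem-loop match, with its annotated transcript bases after the stem-loop plus 1 on the x axis and its counts summed over the 18 libraries on the y axis, both on log scales, coloured by class. Members with at least 100 bases after the stem-loop had a median of 404.5 counts, and those with fewer had a median of 28 counts. Counts are not scaled by length, and for some members most bases after the stem-loop lie outside the counted gene.

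Promoters were matched in RefSeq (GRCm38.p6, 250 bases before to 50 after the start) for 52 members. The CCAAT box, searched on both strands, was in all 40 matched H1, H2A, H2B and H3 promoters and in 3 of 12 H4 promoters, against 37.9% of 27025 promoters of all genes. The letters AAACACA, part of the H1 box, stood on either strand in 4 of 5 H1 promoters and in 7.14% of all promoters. The octamer ATTTGCAT stood on either strand in 7 of 16 H2A and 4 of 11 H2B promoters, in none of the 25 others, and in 1.75% of all promoters. TATAAA on the sense strand was in 28 of 52 members and in 8.88% of all promoters. The 120 bases before the start are shown for an H1 pair with different levels across the groups and for 2 H2A genes, with these motifs in capitals.
Hist1h1c (chr13:23738687-23738806, plus strand): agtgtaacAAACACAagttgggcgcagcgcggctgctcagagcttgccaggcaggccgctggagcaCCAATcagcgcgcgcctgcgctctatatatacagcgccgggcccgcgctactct
Hist1h1b (chr13:21780626-21780745, minus strand): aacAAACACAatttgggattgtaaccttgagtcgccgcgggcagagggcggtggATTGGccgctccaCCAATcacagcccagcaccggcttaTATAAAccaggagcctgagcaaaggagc
Hist3h2a (chr11:58954565-58954684, plus strand): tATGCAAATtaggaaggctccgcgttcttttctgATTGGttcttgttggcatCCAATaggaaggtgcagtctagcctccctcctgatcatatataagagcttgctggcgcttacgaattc
Hist2h2ac (chr3:96220881-96221000, minus strand): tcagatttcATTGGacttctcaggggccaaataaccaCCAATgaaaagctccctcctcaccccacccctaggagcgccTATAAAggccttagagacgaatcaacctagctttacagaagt
Both H1 promoters hold the H1 box letters and a CCAAT box. A pair of CCAAT boxes in opposite directions is in both H2A promoters and in that of *Hist1h1b*.

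Read counts were uneven between the classes. Over the 18 libraries the members had 76829 counts, of which H2B genes held 48.8%, H1 genes 35.5%, H4 genes 8.59%, H2A genes 5.81% and H3 genes 1.30%. With the 18 libraries pooled, a single member led each class. *Hist1h2bc* had 83.8% of the H2B counts (31404), *Hist1h1c* 82.9% of the H1 counts (22620), *Hist3h2a* 59.6% of the H2A counts (2660), *Hist1h4d* 53.3% of the H4 counts (3519) and *Hist2h3c2* 45.9% of the H3 counts (458). The same members led in each of the 6 groups, except for H4 on day 14. There *Hist1h4h* led *Hist1h4d*, with 202 against 83 counts in *Cryab*-WT, 259 against 88 in *Cryab*-R120G-het and 232 against 153 in *Cryab*-R120G-homo. Of the 64 members, 26 had at least 100 counts and 10 had fewer than 10, which were not tested. Levels below are CPM, counts scaled to a common library size, after TMM scaling, which sets the libraries to a common level over most genes.

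Levels per kilobase of gene length are given for the 3 members of each class that were highest over all libraries. In *Cryaa*-WT the mean was highest for *Hist1h2bc*, with 66.3 CPM per kilobase. *Hist1h4d* followed with 30.7, *Hist1h1c* with 20.5, *Hist3h2ba* with 18.04 and *Hist1h1e* with 15.9 CPM per kilobase. *Hist1h1b* had 6.91, *Hist1h2ae* 6.575, *Hist1h4h* 3.92, *Hist1h4c* 3.82, *Hist2h2ac* 2.83 and *Hist3h2a* 2.53 CPM per kilobase. *Hist1h2bb*, *Hist2h3c2*, *Hist1h3e* and *Hist1h3b* lay between 0.415 and 1.21 CPM per kilobase. In *Cryab*-WT *Hist1h2bc* was again the highest, with 163 CPM per kilobase, but the order below it differed. There *Hist1h1c* had 34.2, *Hist3h2ba* 14.8, *Hist1h4h* 11.25, *Hist1h1e* 6.47, *Hist1h4d* 5.44, *Hist3h2a* 2.56 and *Hist1h4c* 1.896 CPM per kilobase. *Hist1h2ae* was at 1.075, *Hist1h1b* at 0.479 and *Hist2h2ac* at 0.266 CPM per kilobase, below *Hist1h2bb*, *Hist2h3c2* and *Hist1h3e* at 1.16 to 1.72, and *Hist1h3b* had no count. Gene lengths are those behind the deposited RPKM values. In the newer annotation the exons of 14 members are over 20% longer, and reads there were not counted.

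Near-identical copies limit these values, since only uniquely aligned reads were counted and coding regions of 1 class are alike. How many reads were lost in this way was not tested, so a low count of a class cannot be read as low expression. In the annotation the exons of *Hist1h1e* and *Hist1h2be* overlap on the same strand, *Hist3h2a* overlaps *Trim17*, and all 18 H2A members overlap a predicted gene on the other strand. The strand setting of the counting is not stated.

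The library of *Cryab*-WT replicate 1 stood apart from the other 2 of its group in the histone genes. It was the highest of the 3 for 20 of the 26 members with at least 100 counts (76.9%), and for 34.05% of the 13645 genes with as many counts. It was at least 2-fold above both others for 9 of the 26 members, and for 9.95% of those genes. *Hist1h1c* was at 94.4 CPM there and at 35.8 and 29.8 CPM in the others. *H2afx*, the variant H2A gene marked at DNA breaks, was at 8.06 against 2.41 and 3.51 CPM. Values without this library are given beside the results that it moves most.

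The lens markers Cryaa, Cryab, Cryba1, Crybb2, Cryga, Bfsp1, Bfsp2, Mip and Gja3 were read in the libraries, whereas Lim2 had no count in any. Library totals ran from 14272174 to 29639719 counts, of which 1722 to 11001 fell on the members. *Gm42418*, which overlaps an rRNA gene, took between 2.53% and 42.6% of a library, the lowest and the highest both in *Cryaa*-R49C-homo. Markers of other cells differed between groups. The summed level of 10 macrophage and microglia markers was 8.38 to 20.8 CPM in *Cryaa*-WT, 23.7 to 42.5 CPM in *Cryaa*-R49C-homo and 1.11 to 2.44 CPM in *Cryab*-WT. The 8 vessel markers summed to 20.4 to 38.5, 22.8 to 72.25 and 7.95 to 11.5 CPM in these groups, and the 8 pigment and ciliary epithelium markers to 18.8 to 36.3, 9.77 to 16.2 and 6.36 to 8.18 CPM. The 12 retina markers spanned 22.1 to 71.3, 23.7 to 37.6 and 25.2 to 820.5 CPM. The 7 erythroid markers spanned 37.3 to 58.3, 44.45 to 152 and 15.25 to 140 CPM. Their part in the histone values was not tested. Fewer cells of a type and less RNA per cell cannot be told apart in such pooled tissue.

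In the WT lenses, the summed H2B level was higher on day 14 after TMM scaling, and the H2A and H4 levels were lower. H2B genes summed to 76.8, 72.2 and 46.5 CPM on day 2 and to 146, 125 and 135 CPM on day 14, without overlap and with a ratio of the means of 2.08. As means of log2(CPM + 0.5) the H2B sums differed by 1.08, and by -0.39 under scaling by library size alone, so the direction turned with the scaling. H2A genes summed to 11.8, 12.2 and 12.7 CPM on day 2 and to 9.75, 5.54 and 5.70 CPM on day 14, a ratio of 0.572. H4 genes summed to 14.6, 17.95 and 22.2 CPM on day 2 and to 11.9, 10.1 and 8.54 CPM on day 14, a ratio of 0.558. H1 genes summed to 48.8, 55.8 and 49.1 CPM on day 2 and to 107, 38.2 and 32.0 CPM on day 14. The H1 groups therefore overlap, and the ratio of 1.15 becomes 0.685 without *Cryab*-WT replicate 1. H3 genes summed to 2.53, 1.92 and 1.48 CPM on day 2 and to 4.56, 1.43 and 1.61 CPM on day 14, with ratios of 1.28 with that library and 0.769 without it. The 5 sums were given no test.

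Within a class, the leading member and the other members did not always go the same way. Without *Hist1h1c*, H1 genes summed to 16.4, 18.4 and 23.1 CPM on day 2 and to 12.8, 2.41 and 2.19 CPM on day 14, a ratio of 0.301, or of 0.119 without *Cryab*-WT replicate 1. Without *Hist3h2a*, H2A genes summed to 5.71, 6.22 and 8.43 CPM on day 2 and to 3.18, 0.587 and 0.730 CPM on day 14, a ratio of 0.221, or of 0.0970 without that library. Without *Hist1h2bc*, the H2B means were 16.3 and 15.2 CPM and lay within the spread of the day 2 libraries. Without *Hist1h4d*, H4 genes had a mean of 6.16 ± 0.411 CPM (SD, n = 3) on day 2 and of 8.04 ± 1.73 CPM on day 14, so the direction of the H4 sum turned.

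**Figure D2:**
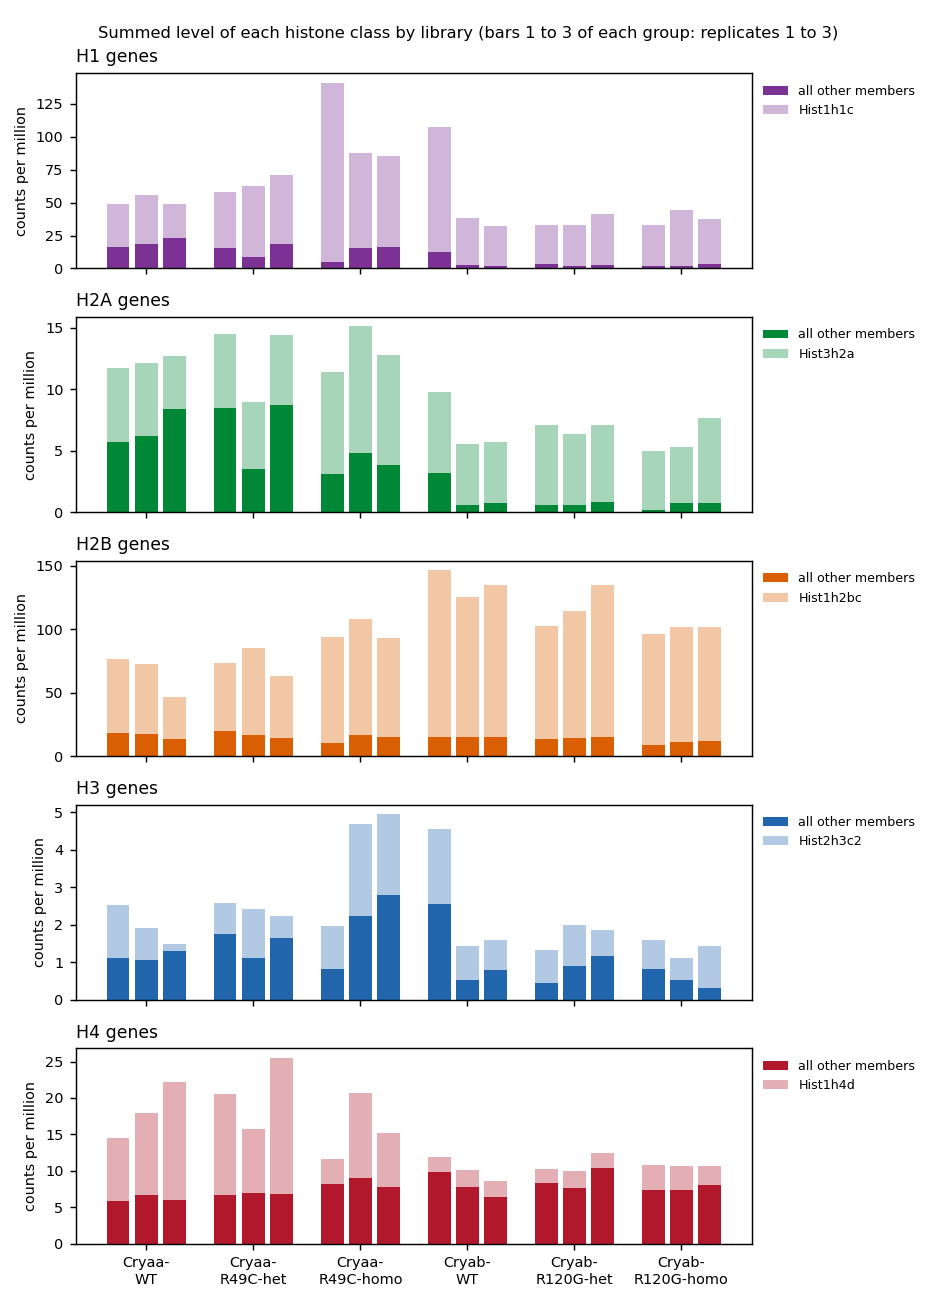
Stacked bars give the summed CPM of each class in each of the 18 libraries, with the member that has most counts in the pale part and all other members in the dark part, and the 3 bars of a group are replicates 1 to 3. The dark part of H1 and H2A is between 0.193 and 3.19 CPM in the day 14 libraries other than *Cryab*-WT replicate 1, and between 3.11 and 23.1 CPM in the day 2 libraries.

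Gene by gene, 2 of the 54 tested members rose from WT day 2 to WT day 14 and 7 fell, at an adjusted p of at most 0.05. Over all 19665 genes tested, 6.87% rose and 8.2% fell. The median log2 fold change of the 26 members with at least 100 counts was -0.93, against -0.10 for all 13645 genes with as many counts and -0.15 for all genes tested. The 7 that fell were 2 H1, 3 H2A, 1 H3 and 1 H4 gene. Under scaling by library size alone, which moves the median of all genes to -1.62, no member rose and 27 fell, while of all genes 160 rose and 12315 (62.6%) fell, against 1351 and 1613 here. The 27 include *Hist3h2a*, *Hist3h2ba*, *Hist1h4c* and *Hist2h4*, which were not called with TMM scaling.

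*Hist1h1b*, an H1 gene known from dividing cells, was at 4.34, 4.92 and 6.14 CPM on day 2 and at 0.530, 0.391 and 0.146 CPM on day 14. The groups lay far apart, with a log2 fold change of -3.89 ± 0.52 (SE) and an adjusted p of 5.39e-06. *Hist1h1a*, another H1 gene, was at 1.33, 2.09 and 1.62 CPM on day 2 and at 0.530, 0.261 and 0 CPM on day 14 (log2 -2.78 ± 0.74, adjusted p = 0.0109). Without *Cryab*-WT replicate 2 or 3 its adjusted p was 0.05135 or 0.0602, and without replicate 1 its log2 fold change was -3.58 (adjusted p = 0.00722). *Hist1h1e* was at 10.1, 10.6 and 14.9 CPM on day 2 and at 10.9, 1.56 and 2.04 CPM on day 14. Its log2 fold change was -1.36 ± 0.63 with an adjusted p of 0.179, and it was called lower, at -2.72 (adjusted p = 0.0002005), without *Cryab*-WT replicate 1. With all libraries it was called lower by the likelihood-ratio test (-2.34, adjusted p = 1.48e-05), with every gene of at least 1 count kept (-1.36, adjusted p = 7.54e-05) and under scaling by library size alone (-2.92, adjusted p = 0.00237).

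*Hist1h1c*, the H1 gene with the most reads, did not pass the test between the WT groups. It was called higher with every gene of at least 1 count kept (log2 0.73, adjusted p = 0.0365). It was at 32.3, 37.5 and 26.0 CPM on day 2 and at 94.4, 35.8 and 29.8 CPM on day 14, groups that overlap, with a log2 fold change of 0.74 ± 0.33 and an adjusted p of 0.136. The high value was again that of *Cryab*-WT replicate 1, without which the log2 fold change was 0.04 (adjusted p = 0.952).

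Of the H2A genes, *Hist2h2ac* was at 1.42, 1.197 and 1.80 CPM on day 2 and at 0.212, 0.130 and 0.0730 CPM on day 14 (log2 -3.43 ± 0.67, adjusted p = 0.000591). *Hist1h2ab* was at 1.03, 0.889 and 1.34 CPM on day 2, with 88 counts, and had 3 counts in all on day 14. By counting error alone it was 13.95-fold lower, with an exact 95% interval from 4.62 to 69.0, and its adjusted p was 0.00257. *Hist1h2ae* was at 2.36, 3.04 and 3.67 CPM on day 2 and at 1.27, 0.0652 and 0.146 CPM on day 14. It fell by 2.82 ± 0.82 on the log2 scale (adjusted p = 0.0276). Its adjusted p was 0.0557 and 0.0859 without *Cryaa*-WT replicates 2 and 3, 0.0986 and 0.116 without *Cryab*-WT replicates 2 and 3, and 0.000532 without *Cryab*-WT replicate 1, where the log2 fold change was -4.80. *Hist3h2a*, the leading H2A gene, stood at 6.06, 5.95 and 4.31 CPM on day 2 and at 6.57, 4.95 and 4.97 CPM on day 14, with a log2 difference of 0.01 (95% interval -0.46 to 0.48). So 3 of the 12 tested H2A genes fell, and the H2A gene with the most counts over the 18 libraries was not among them.

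*Hist1h2bc*, the leading H2B gene, was at 58.9, 54.8 and 32.8 CPM on day 2 and at 131, 110 and 120 CPM on day 14. All day 14 libraries lay above the day 2 libraries, with a log2 fold change of 1.30 ± 0.23 and an adjusted p of 0.0002085. Under scaling by library size alone this value turned to -0.14 (adjusted p = 0.604). *Hist3h2ba* was at 12.9, 11.8 and 8.54 CPM on day 2 and at 7.31, 9.26 and 10.7 CPM on day 14, overlapping groups with an adjusted p of 0.473. *Hist1h2bb*, a minor H2B gene, had means of 0.548 and 0.776 CPM (adjusted p = 0.606). Of the 16 tested H2B genes, 1 rose and none fell, with 4 at an unadjusted p under 0.05, and DESeq2 called the same gene alone.

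The H4 class held a pair of called genes that went opposite ways. *Hist1h4d* was at 8.68, 11.3 and 16.2 CPM on day 2 and at 2.01, 2.28 and 2.12 CPM on day 14 (log2 -2.49 ± 0.36, adjusted p = 1.92e-05). *Hist1h4h* was at 1.89, 2.26 and 1.41 CPM on day 2 and at 6.15, 5.74 and 4.09 CPM on day 14 (log2 1.52 ± 0.27, adjusted p = 0.000198). The groups did not overlap for either gene. Under scaling by library size alone *Hist1h4h* was at 0.08 (adjusted p = 0.837). *Hist1h4c* was lower by 1.03 on the log2 scale, with an adjusted p of 0.110, and *Hist2h4* differed by 0.09 (95% interval -1.02 to 1.203).

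Of the 9 tested H3 genes, *Hist1h3b* fell. It had 21 counts on day 2, at 0.215, 0.239 and 0.318 CPM, and no count in any day 14 WT library, so it was at least 3.33-fold lower against a floor of 3 counts over the group. Its adjusted p was 0.0190, and 0.0564, 0.0733 and 0.0683 without *Cryaa*-WT replicate 3 or *Cryab*-WT replicates 2 and 3. *Hist2h3c2* was at 1.42, 0.855 and 0.176 CPM on day 2 and at 2.01, 0.913 and 0.803 CPM on day 14 (adjusted p = 0.504). *Hist1h3e* was at 0.515, 0.342 and 0.388 CPM on day 2 and at 1.91, 0.261 and 0.730 CPM on day 14 (adjusted p = 0.265, and 0.862 without *Cryab*-WT replicate 1). In all, 11 tested members had no count in any day 14 WT library, and 1 had none in any day 2 WT library. The number of falling members was 4 without *Cryab*-WT replicate 2, 8 without replicate 1 and 11 in the likelihood-ratio test, where 5.07%, 8.45% and 13.9% of all genes fell.

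Lists of genes around histone supply differed in how many members fell between the WT groups, where 8.2% of all genes fell. Of 25 replication markers, 19 fell and none rose, with a median log2 fold change of -1.53. *Top2a*, a topoisomerase of dividing cells, went from 31.3 ± 5.43 to 3.85 ± 1.30 CPM (log2 -2.998, adjusted p = 4.92e-08), and *Mki67*, a marker of cycling cells, from 21.4 to 3.04 CPM. Of 18 histone chaperones 6 fell and none rose, among them *Asf1b* (log2 -2.705) and *Chaf1b* (log2 -2.22), which hand new H3 and H4 to DNA behind the fork. Of 11 replacement histone genes, most of which give mRNAs with a poly-A tail outside S phase too, 4 fell and none rose. They were *Cenpa*, the centromeric H3 (log2 -2.49), *H2afz* (log2 -1.36), *H2afx* (log2 -1.18, adjusted p = 0.0107, and -1.80 without *Cryab*-WT replicate 1, with an adjusted p of 0.000184) and *H2afy* (log2 -0.68). Of 16 genes of the histone mRNA machinery, 2 fell and none rose. These were *Lsm11* of the U7 particle that cuts the 3′ end (log2 -2.13) and *Casp8ap2* of the histone locus body (log2 -0.86). Of 11 tested lens epithelium genes 1 rose and 3 fell.

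Beside these, all 10 macrophage and microglia markers fell between the WT groups, with 6 of 8 vessel markers, 4 of 8 pigment and ciliary markers and 1 of 12 retina markers, while 3 retina markers rose. Of all genes 6.87% rose and 8.2% fell. None of 7 erythroid markers and none of 9 tested RNAs without poly-A tails passed the test. What these cells add to the fall of the histone genes was not tested.

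In *Cryaa*-R49C-homo lenses, the summed H1 and H2B levels were above *Cryaa*-WT. H1 genes summed to 141, 87.6 and 85.4 CPM against 48.8, 55.8 and 49.1 CPM, with a ratio of the means of 2.04. H2B genes summed to 93.5, 108 and 92.8 CPM against 76.8, 72.2 and 46.5 CPM, a ratio of 1.504. Neither class overlapped between the groups. H3 genes summed to 1.98, 4.68 and 4.96 CPM, which overlaps the WT range of 1.48 to 2.53 CPM. H2A genes summed to 11.4, 15.1 and 12.8 CPM and H4 genes to 11.6, 20.7 and 15.2 CPM, both overlapping WT, with ratios of 1.07 and 0.867.

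Here too the class sums hid members that went apart. Without *Hist1h1c*, H1 genes summed to 5.07, 15.8 and 16.3 CPM in *Cryaa*-R49C-homo and to 16.4, 18.4 and 23.1 CPM in WT, lower in all 3 mutant libraries. Without *Hist3h2a*, H2A genes summed to 3.11, 4.84 and 3.82 CPM against 5.71, 6.22 and 8.43 CPM, a ratio of 0.578. Without *Hist1h2bc*, the H2B means were 13.8 ± 3.44 and 16.3 ± 2.27 CPM. Without *Hist1h4d*, H4 genes summed to 8.13, 9.01 and 7.82 CPM against 5.88, 6.63 and 5.96 CPM, higher in all 3. The choice of the member to leave out rests on its counts in these libraries, so these sums are a description.

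Of the 54 tested members, 4 rose and 1 fell in *Cryaa*-R49C-homo, where 3.25% of all genes rose and 3% fell. These shares depended on single libraries. Without *Cryaa*-R49C-homo replicate 1, 5 members rose and none fell, against 6.35% and 8.64% of all genes. Without *Cryaa*-WT replicate 1, 2 members rose and none fell, against 1.599% and 1.87%, and without *Cryaa*-WT replicate 2, 1 rose and none fell, against 1.604% and 1.88%. Without *Cryaa*-WT replicate 3, 1 rose and 1 fell, against 1.78% and 2.55%, and without *Cryaa*-R49C-homo replicate 2, 2 rose and 1 fell, against 1.99% and 1.95%. The median log2 fold change of the 26 members with at least 100 counts was 0.15, against 0.03 for all genes with as many counts. *Hist1h1c* was at 136, 71.8 and 69.1 CPM against 32.3, 37.5 and 26.0 CPM in WT. All mutant libraries lay above WT, with a log2 fold change of 1.53 ± 0.33 and an adjusted p of 0.00451. It stayed past the threshold under each of the 14 alternatives, with adjusted p up to 0.0447. Its highest value came from replicate 1, the library with least *Gm42418*.

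*Hist2h4*, an H4 gene of the second cluster, was at 2.45, 1.56 and 1.41 CPM against 0.558, 0.479 and 0.565 CPM (log2 1.76 ± 0.49, adjusted p = 0.0255). Its adjusted p was 0.0911, 0.121 and 0.0756 without *Cryaa*-WT replicates 1, 2 and 3 and 0.0585 without *Cryaa*-R49C-homo replicate 1. *Hist1h2bc* was at 83.5, 91.1 and 78.0 CPM against 58.9, 54.8 and 32.8 CPM (log2 0.79 ± 0.23, adjusted p = 0.0350). Its adjusted p was 0.0766 and 0.211 without *Cryaa*-WT replicates 2 and 3, 0.102 without *Cryaa*-R49C-homo replicate 2, and 0.116 with the 9 libraries of the line fitted alone. *Hist3h2a* was at 8.27, 10.3 and 9.003 CPM against 6.06, 5.95 and 4.31 CPM (log2 0.76 ± 0.23, adjusted p = 0.0433). Its adjusted p was 0.0843, 0.103 and 0.2085 without *Cryaa*-WT replicates 1, 2 and 3, and 0.149 and 0.0762 without *Cryaa*-R49C-homo replicates 2 and 3. With every gene of at least 1 count kept it was 0.0869, and in the line fitted alone 0.0725. Scaled by library size less *Gm42418* and crystallins it was 0.0506. No mutant library overlapped a WT library for any of these genes, which were named for passing the test on the same values. Of these 4 members, only *Hist1h1c* was called whichever of the 6 libraries was left out.

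*Hist3h2ba*, an H2B gene of the third cluster, fell. It was at 5.26, 6.72 and 7.52 CPM against 12.9, 11.8 and 8.54 CPM (log2 -0.77 ± 0.24, adjusted p = 0.0458). Its adjusted p was 0.206 and 0.136 without *Cryaa*-WT replicates 1 and 2, and 0.0563 and 0.0934 without *Cryaa*-R49C-homo replicates 1 and 2. With every gene of at least 1 count kept it was 0.0665, and in the line fitted alone 0.102. Under scaling by library size alone it was 0.402, at a log2 fold change of -0.36. *Hist3h2a* and *Hist3h2ba*, both of the third cluster, thus lay on opposite sides of WT.

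Of the 7 members that fell between the WT groups, 4 lay below all WT libraries in the mutant without passing the test. All 3 mutant libraries lay below all 3 WT libraries for 10.7% of the 19665 genes tested, and for 17.4% of the 1613 genes that fell between the WT groups. *Hist1h2ae* was at 1.34, 1.37 and 0.763 CPM against 2.36, 3.04 and 3.67 CPM in WT, with no overlap, a log2 difference of -1.37 ± 0.66 and an adjusted p of 0.263. It was called by the likelihood-ratio test (adjusted p = 0.00918), with every gene of at least 1 count kept (0.0134) and in the line alone (0.0404). *Hist2h2ac* was at 0.801, 0.668 and 0.382 CPM against 1.42, 1.197 and 1.80 CPM (log2 -1.23, adjusted p = 0.142). *Hist1h2ab* was at 0.141, 0.828 and 0.382 CPM against 1.03, 0.889 and 1.34 CPM (log2 -1.29, adjusted p = 0.208). *Hist1h1b* was at 1.30, 3.88 and 2.86 CPM against 4.34, 4.92 and 6.14 CPM (log2 -0.95, adjusted p = 0.161). The groups of these 4 genes did not overlap. Both comparisons use the same *Cryaa*-WT libraries, so a like direction in them is not independent. The first 3 of these 4 genes, with *Hist3h2ba*, are the 4 members that fell in the likelihood-ratio test, in which 8.299% of all genes fell.

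Other members of the named set did not pass the test in *Cryaa*-R49C-homo with all libraries and TMM scaling. *Hist1h4h*, which rose between the WT groups, was at 1.82, 1.78 and 2.14 CPM against 1.89, 2.26 and 1.41 CPM (log2 0.04, 95% interval -0.48 to 0.57). *Hist1h4d* was at 3.44, 11.7 and 7.36 CPM against 8.68, 11.3 and 16.2 CPM (log2 -0.69, adjusted p = 0.220), and it was called lower, at -1.17 (adjusted p = 0.0340), without *Cryaa*-R49C-homo replicate 2. *Hist2h3c2* was at 1.16, 2.45 and 2.17 CPM against 1.42, 0.855 and 0.176 CPM (log2 1.25, adjusted p = 0.139). It was called higher without *Cryaa*-R49C-homo replicate 1 (log2 1.52, adjusted p = 0.0357) and under scaling by library size alone (log2 1.75, adjusted p = 0.0211). *Hist1h1e* had a log2 difference of -0.72 (adjusted p = 0.575), *Hist1h3e* one of 0.84 (0.505) and *Hist1h4c* one of 0.48 (0.532). *Hist1h1a*, *Hist1h3b* and *Hist1h2bb* differed by less than their spread, with adjusted p of 0.962, 0.901 and 0.954.

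**Figure D3:**
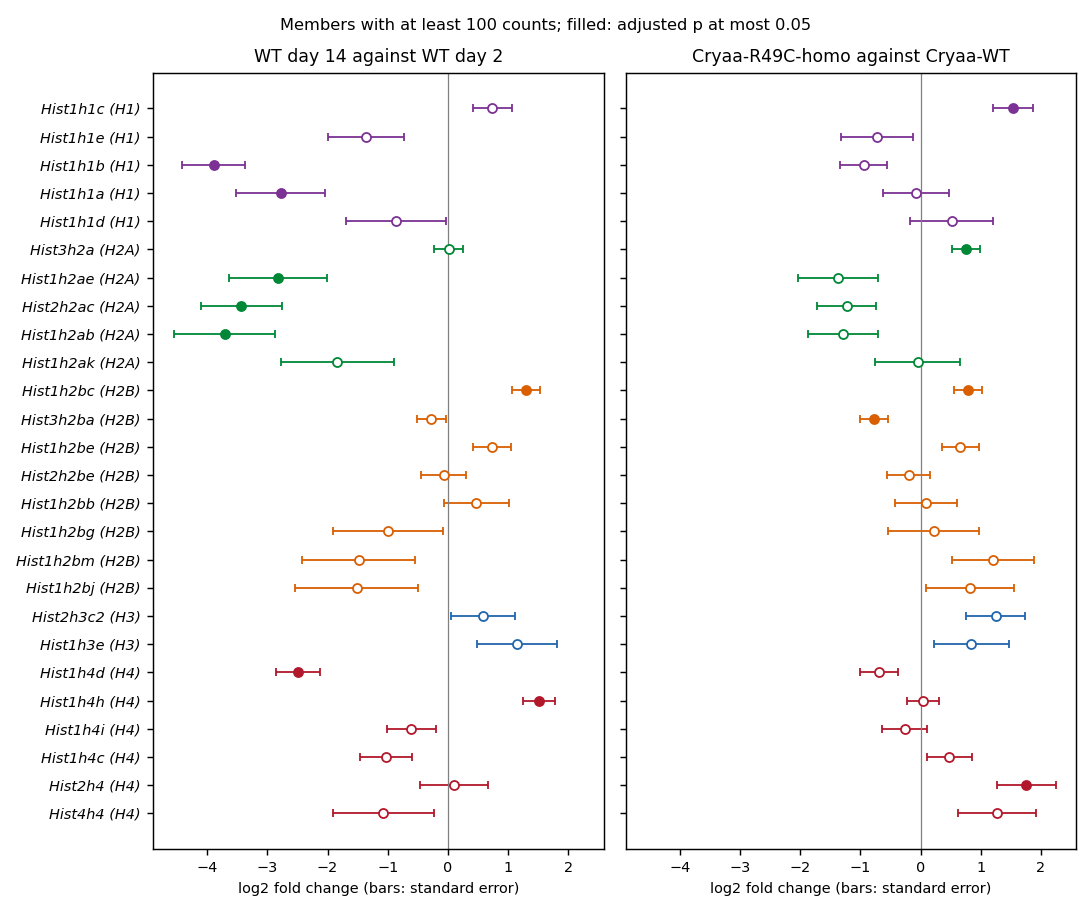
Points give the log2 fold change and bars the standard error of the 26 members with at least 100 counts, coloured by class, for WT day 14 against WT day 2 on the left and *Cryaa*-R49C-homo against *Cryaa*-WT on the right, where filled points passed an adjusted p of 0.05. *Hist1h2bc* is filled and above 0 in both panels, which share the *Cryaa*-WT libraries, and *Hist1h1b* is filled at -3.89 on the left and open at -0.95 on the right.

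By the annotated transcript end, the 4 members that rose in *Cryaa*-R49C-homo were 3 with at least 100 bases after the stem-loop and *Hist1h2bc*, which had no match. The 1 that fell, *Hist3h2ba*, also had the longer end. The 20 tested members with the longer end had a median log2 fold change of 0.50 there, and 13 were above 0. Of the 14 tested members with the shorter end none was called, 11 were above 0 and the median was 0.25. The 18 tested members without a match had a median of 0.24, with 9 above 0. Between the WT groups the medians were -0.46 for the longer end, -2.23 for the shorter end and -1.74 without a match. The 11 tested members without a count in day 14 WT lenses have fitted folds of no defined size. Of the members with at least 100 counts, the 15 with the longer end had medians of -0.61 between the WT groups and 0.52 in *Cryaa*-R49C-homo, the 5 with the shorter end -1.52 and 0.04, and the 5 without a match -1.84 and -0.08. Among members with a matched promoter, 8 head-to-head pairs of H2A and H2B genes had overlapping promoter windows. They held 1 called gene, *Hist1h2ae*. Its partner *Hist1h2bg* had log2 differences of -0.997 between the WT groups and 0.22 in *Cryaa*-R49C-homo, neither past the test. *Hist1h2bc* and *Hist2h2be* had no matched promoter, so their pairs with *Hist1h2ac* and *Hist2h2ac*, read in opposite directions, are not among the 8. Of these, *Hist1h2bc* was called in both comparisons and *Hist2h2ac* between the WT groups.

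The lists around histone supply were also tested in *Cryaa*-R49C-homo, where 3.25% of all genes rose and 3% fell. Of 25 replication markers 1 fell, *Gins2* of the replicative helicase (log2 -1.27, adjusted p = 0.0269), and none rose. Of 16 machinery genes 1 fell, *Cpsf2*, a subunit of the complex that cuts histone and other mRNAs (16.8 ± 2.53 against 43.9 ± 8.60 CPM, log2 -1.38, adjusted p = 0.000119). Of 18 chaperones *Nap1l1* rose (log2 0.95) and *Nap1l4* fell (log2 -0.88), both carriers of H2A and H2B. None of 11 replacement histone genes passed the test, with *H2afx* at 10.25 ± 4.04 CPM against 10.3 ± 1.71 CPM. Of 11 lens epithelium genes, *Gja1* fell (log2 -1.96).

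Of 9 tested RNAs without poly-A tails, 4 rose in *Cryaa*-R49C-homo and none fell, where 3.25% of all genes rose and 3% fell. The 4 were *Rny1* (log2 4.01), *Rpph1* (log2 2.46), *Rny3* (log2 2.12, adjusted p = 0.000102) and *Rn7sk* (log2 1.66). *C1qa* and *C1qc* of 10 macrophage markers and *Tie1* and *Cdh5* of 8 vessel markers rose, and 2 of 8 pigment and ciliary markers fell, while no retina or erythroid marker passed the test. The part of the capture of RNAs without tails, and of these cells, in the histone values was not tested.

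In *Cryaa*-R49C-het, no member passed the test in edgeR or in DESeq2, with 1 member at an unadjusted p under 0.05, where 0.00509% of all genes were called. *Hist1h1c* was at 42.7, 53.4 and 52.5 CPM, above all *Cryaa*-WT libraries and below all *Cryaa*-R49C-homo libraries. Its log2 difference from WT was 0.63 ± 0.32, with an adjusted p of 0.921 and a 95% interval from -0.0041 to 1.27. *Hist1h2bc* was at 53.6, 68.7 and 48.6 CPM, which overlaps WT (log2 0.22, 95% interval -0.23 to 0.67). *Hist3h2a* differed by 0.06 (95% interval -0.39 to 0.51), *Hist2h4* by 0.15 (-0.84 to 1.14), *Hist3h2ba* by -0.01 (-0.47 to 0.44) and *Hist1h2ae* by 0.01 (-1.23 to 1.24). The class sums of the heterozygotes had ratios to WT between 1.03 for H2A and 1.245 for H1, and that of H1 was 0.739 without *Hist1h1c*. No gene of the replication, machinery, chaperone, replacement histone or lens epithelium lists passed the test.

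In the *Cryab*-R120G line on day 14, no member passed the test in *Cryab*-R120G-het or *Cryab*-R120G-homo, in edgeR or in DESeq2. At an unadjusted p under 0.05 there were 1 and 5 members, and of all genes 0.00509% and 0.0356% were called. *Hist1h1c* was at 29.7, 31.5 and 38.5 CPM in the heterozygotes and at 31.0, 42.3 and 34.2 CPM in the homozygotes, against 94.4, 35.8 and 29.8 CPM in WT. Its log2 difference was -0.68 and -0.57, and 0.02 and 0.13 without *Cryab*-WT replicate 1. *Hist1h2bc* was at 88.9, 99.4 and 119 CPM in the heterozygotes and at 87.4, 90.5 and 89.8 CPM in the homozygotes, the latter below all 3 WT libraries (log2 -0.43 ± 0.23, adjusted p = 0.858). *Hist3h2ba* was at 4.94, 6.18 and 6.91 CPM in the homozygotes, also below the WT range of 7.31 to 10.7 CPM (log2 -0.60 ± 0.25, adjusted p = 0.769). With the replicate number as a block, no member was called in *Cryab*-R120G-homo either, where 33 of all genes (0.168%) were called. With every gene of at least 1 count kept, *Hist1h1e* was called lower in both, at -1.375 (adjusted p = 0.00611) and -1.53 (adjusted p = 0.000485), a difference that rests on 10.9 CPM in *Cryab*-WT replicate 1.

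The class sums of the *Cryab*-R120G groups had ratios to WT between 0.547 and 1.07, and between 0.767 and 1.22 without *Cryab*-WT replicate 1. The lowest ratio without that library was that of H2B in the homozygotes, with 96.3, 101 and 102 CPM against 125 and 135 CPM. *H2afx* was at 9.89, 11.4 and 9.34 CPM in the homozygotes and at 8.06, 2.41 and 3.51 CPM in WT (log2 1.17 ± 0.32, unadjusted p = 0.00103, adjusted p = 0.421). Without *Cryab*-WT replicate 1 it was called, at 1.79 with an adjusted p of 0.0165, and its difference in the heterozygotes was 1.06 (adjusted p = 0.660). With all libraries no gene of the other lists passed the test in either group.

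Markers of other cells differed in level between these groups. The pigment and ciliary epithelium markers summed to 19.2 to 59.5 CPM in *Cryab*-R120G-het and to 17.8 to 31.7 CPM in *Cryab*-R120G-homo, both above the 6.36 to 8.18 CPM of *Cryab*-WT without overlap. The macrophage markers summed to 1.995 to 4.64 CPM and 2.28 to 7.32 CPM, overlapping the WT range of 1.11 to 2.44 CPM. The vessel markers were at 7.499 to 17.0 CPM and 9.51 to 11.9 CPM, the retina markers at 104 to 643 CPM and 221 to 1243 CPM, and the erythroid markers at 132 to 446 CPM and 48.2 to 171 CPM, with WT overlapping in each. Their part in the histone values was not tested.

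The effect of being homozygous differed between the lines for 2 of the 54 tested members, against 1.82% of all genes. Without *Cryaa*-R49C-homo replicate 1 it differed for 2 members as well, against 8.625% of all genes. *Hist1h1c* had a difference of -2.10 ± 0.46 on the log2 scale (*Cryab*-R120G minus *Cryaa*-R49C, adjusted p = 0.0146), with 1.53 in *Cryaa*-R49C and -0.57 in *Cryab*-R120G. *Hist1h2bc* had a difference of -1.22 ± 0.33 (adjusted p = 0.0456), with 0.79 and -0.43. Without *Cryab*-WT replicate 1 the differences were -1.40 (adjusted p = 0.0452) and -1.15 (adjusted p = 0.0862). For *Hist1h1c* the adjusted p was 0.0501 without *Cryab*-R120G-homo replicate 1. For *Hist1h2bc* it lay between 0.0661 and 0.148 without each of 9 single libraries. For *Hist2h4* the difference was -2.14 and for *Hist3h2a* -0.78, neither past the test (adjusted p = 0.202 and 0.296). Line, mutated gene and age change together in this comparison.

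**Figure D4:**
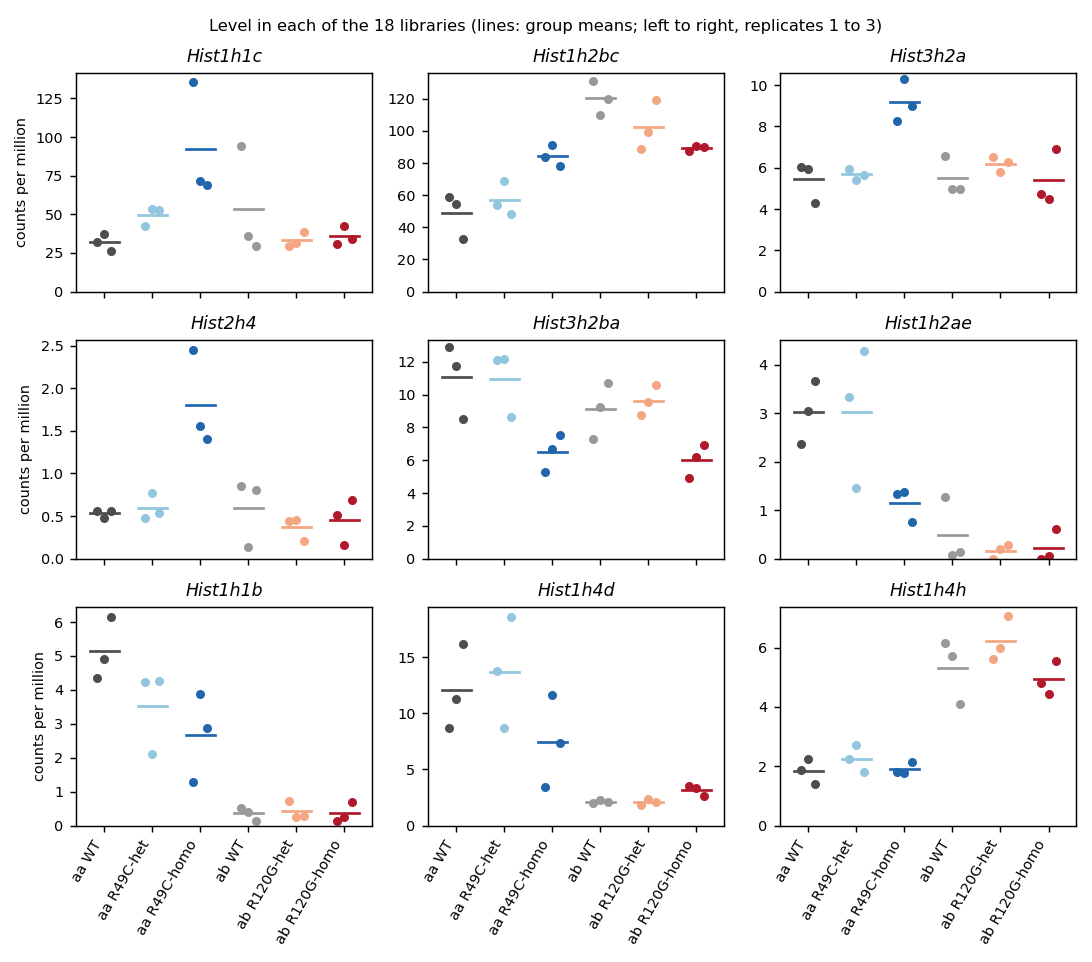
Each point is the CPM of 1 library for 9 members, lines are group means, and aa and ab stand for the *Cryaa* line on day 2 and the *Cryab* line on day 14. *Hist1h1c*, *Hist1h2bc*, *Hist3h2a* and *Hist2h4* lie above all *Cryaa*-WT libraries in *Cryaa*-R49C-homo, *Hist3h2ba*, *Hist1h2ae* and *Hist1h1b* lie below them, and *Hist1h4d* and *Hist1h4h* are apart between the WT groups in opposite directions.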

How the data were processed

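RNA-seq libraries from pooled lenses were prepared by the authors with a poly-A kit, sequenced as single reads, aligned with STAR 2.0.4b to GRCm38 and counted with featureCounts 1.4.5, per the submitters' processing notes and the study's methods. The deposited count table holds whole read counts per gene without normalization. Its 41422 lines give 40800 genes, because genes with several Entrez identifiers are repeated. The deposited RPKM values were made by the authors from the same reads and served here only to recover gene lengths, which agreed between libraries within 0.038% for the members. The deposited CPM and moderated log2 tables were not used.

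Genes with at least 10 counts in all (19665) were scaled with TMM and fitted in edgeR 4.0.16 (R 4.3.3) with 1 model of the 6 groups and robust quasi-likelihood tests. Adjusted p is the Benjamini-Hochberg value over all these genes, with a threshold of 0.05. Intervals of 95% are the log2 fold change with 1.96 standard errors. The study fitted generalized linear models with robust dispersions in edgeR. A likelihood-ratio test was an alternative here, with DESeq2 1.42.0, other scalings and filters, a replicate block, a fit per line and leaving out each library. The script was tested on simulated data, where the *Cryaa*-R49C-homo comparison recovered 52% of genes changed 4-fold and 14% of those changed 2-fold among 19665 genes. Intervals from counts cover counting error only.

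Named members were the 3 per class with the highest level per kilobase, all past the threshold in a comparison, and *Hist1h1c*, *Hist2h4*, *Hist3h2a*, *Hist1h2bc*, *Hist3h2ba* and *Hist1h2ae*. Of the other lists at most 4 genes by smallest p were named, with *H2afx* and *Gm42418*. *Hist1h2bg*, *Hist1h2ac*, *Hist2h2be*, *Trim17* and the lens markers were named beside these after their values were seen. The members and lists were chosen with earlier results of these data known. After group means were removed, same-numbered libraries of *Cryab*-WT and *Cryab*-R120G-homo correlated with r = 0.21, 0.13 and 0.11. Libraries of unlike number were not compared, so whether the numbers pair the libraries was not settled.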

Additional observations from a re-analysis of the deposited data

Results flagged for a closer look

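The homozygous effect on *Hist1h1c* differed between the lines, with a difference of -2.10 on the log2 scale (*Cryab*-R120G minus *Cryaa*-R49C) in the test of the difference itself. The difference was -1.40 without *Cryab*-WT replicate 1 and lay between -2.39 and -1.40 over the 18 alternatives, 17 of which kept it past the threshold. The homozygous effect on *Hist1h2bc* differed by -1.22 in the same test, and lay between -1.38 and -0.95 over the 18 alternatives, 8 of which kept it past the threshold.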

How the results depend on the processing

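With scaling by library size alone no member rose between the WT groups and 27 fell, where 0.814% of all genes rose and 62.6% fell. In *Cryaa*-R49C-homo 6 rose and none fell, where 8.47% of all genes rose and 1.26% fell. Scaled by library size less *Gm42418* and crystallins, 15 fell between the WT groups, where 31.9% of all genes fell. Under this scaling 1 differed between the lines, where 1.765% of all genes did. The likelihood-ratio test called 11 and 4 as lower between the WT groups and in *Cryaa*-R49C-homo, with 13.9% and 8.299% of all genes. The line fitted alone called 2 as higher in *Cryaa*-R49C-homo, where 2.814% of all genes rose. Keeping every gene with a count called 1 as lower in each *Cryab*-R120G group (0.298% and 0.373% of all genes). Without single libraries, 2 to 3 rose and 4 to 8 fell between the WT groups, against 3.802% to 6.365% and 4.431% to 8.45% of all genes. In *Cryaa*-R49C-homo 1 to 5 rose and 0 to 1 fell, against 1.599% to 6.349% and 1.871% to 8.641%. Between the lines 0 to 2 differed, against 1.054% to 8.625%. Class sums, as differences of mean log2(CPM + 0.5), which are not the log2 of the ratios of means, moved as follows. Between the WT groups, library size alone gave -1.47 for H1, -2.18 for H2A, -0.39 for H2B, -0.97 for H3 and -2.21 for H4, the reduced library size gave -0.71 for H1, -1.47 for H2A, 0.38 for H2B and -1.48 for H4, and leaving out the top member gave -2.06 for H1, -2.08 for H2A, -0.092 for H2B and 0.34 for H4. Leaving out *Cryab*-WT replicate 1 as well, a choice made after seeing the data, gave -2.81 for H1, -2.64 for H2A, -0.0995 for H2B, -0.52 for H3 and 0.19 for H4. In *Cryaa*-R49C-homo, library size alone gave 1.39 for H1, 0.48 for H2A, 1.02 for H2B and 0.18 for H4, and leaving out the top member gave -0.77, -0.72, -0.26 and 0.40. In *Cryaa*-R49C-het H1 was at 0.53 and -0.47 under these 2 settings. In *Cryab*-R120G-het, H2A was at -0.54 without its top member and H2B at -0.025 by library size alone. In *Cryab*-R120G-homo, H2A and H2B were at -0.71 and -0.52 without their top members, H2B at -0.081 and -0.19 and H4 at 0.41 and 0.32 by the library size alone and reduced. *Hist1h2bc* turned to -0.14 between the WT groups by library size alone, and *Hist1h1c* to 0.019 and 0.13 in *Cryab*-R120G-het and -homo without *Cryab*-WT replicate 1 (lowest value in the latter without single libraries -0.86). The causes were not tested. For the members called or singled out in a comparison, 243 values under the alternatives kept direction and call, 44 lost the call, 3 gained it and 3 reversed. With the replicate number as a block, 2 rose and 7 fell between the WT groups, against 6.519% and 8.06% of all genes. In *Cryaa*-R49C-homo 4 rose and 1 fell, against 3.417% and 3.427%. In *Cryab*-R120G-homo 0 were called, so no count of called members changed. Between same-numbered libraries r was 0.03 to 0.11 in *Cryaa*-R49C-homo, -0.025 to 0.31 in *Cryaa*-R49C-het and 0.015 to 0.27 in *Cryab*-R120G-het. It was -0.13 to 0.098 between the WT groups and 0.11 to 0.21 in *Cryab*-R120G-homo. These ranges overlap, so they do not show in which comparison the numbers pair the libraries. Low counts limit the data, as 26 of the 64 members had at least 100.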
